A study of Homo sapiens with 6 samples.

Results

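The transcripts described here are those of the human mitochondrial genome: all 37 rows of a table of 58051 genes whose Ensembl IDs carry a symbol beginning with MT-, namely 13 mRNAs, 2 rRNAs and 22 tRNAs. They were measured by RNA-seq in A375, an established human melanoma cell line. All cells were starved for 2 h. The cells of the 3 Vehicle libraries were then given 4 mM HCl with 1 mg/mL BSA, and those of the 3 TGFB1 libraries 10 ng/mL of TGFB1, a secreted ligand, each for a further 2 h. The series' text calls the replicates technical, so p-values measure only the spread between these libraries, and a single line was used. RNA was depleted of ribosomal RNA before library preparation, although the molecule is labelled as polyA RNA. Of genes listed as melanoma or melanocyte markers, AXL (238.8 CPM, counts scaled to a common library size), S100B (56.8 CPM) and MITF (58.1 CPM) were present. The lineage factor gene SOX10 had 0 counts in all 6 libraries and TYR stood at 0.0413 CPM. The lineage genes PMEL (0.724 CPM), MLANA (0.382 CPM), TYRP1 (0.383 CPM) and DCT (4.32 CPM) were low too. Of 3 listed keratinocyte genes, KRT14 stood at 15.5 CPM, KRT5 at 0.195 CPM and CDH1 at 0.102 CPM. MITF was lower with TGFB1 (log2 fold change -0.23, edgeR adjusted p = 0.0355), though limma-voom did not call it.

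Mitochondrial DNA is a small circle that is transcribed on both strands into long precursors. The precursor of the heavy (H) strand carries both rRNAs, most mRNAs and most tRNAs, and that of the light (L) strand carries MT-ND6 and the other tRNAs. The tRNAs lie between the larger genes and are cut out of the precursors, which frees the mRNAs and rRNAs. Most of the mRNAs then receive short poly(A) tails. The mRNAs encode core subunits of respiratory complexes I, III and IV and of ATP synthase (complex V), which make most of a respiring cell's ATP. Nuclear genes supply the other subunits, the polymerase and the ribosomal proteins. Here 28 members lay on the H strand (the plus strand of the annotation) and 9 on the L strand.

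Library totals ran from 24713894 to 34895075 counts. Of all counts, mitochondrial rows took 2.20%, 1.28% and 0.769% in Vehicle replicates 1, 2 and 3, and 0.845%, 0.553% and 0.898% in TGFB1 replicates 1, 2 and 3. Most of this was rRNA: the 13 mRNAs together held between 0.0578% and 0.080% of the counts of a library. By mean CPM, MT-RNR2 was the gene of rank 2 in the whole table and MT-RNR1 of rank 22, whereas the highest mRNA, MT-CO1, had rank 860. Vehicle replicate 1 stood apart with the highest mitochondrial rRNA and the smallest total. The Vehicle libraries also differed among themselves over the whole table. The mean chi-square per gene, given the library totals, was 25.09 between Vehicle replicates 1 and 3. Between Vehicle replicate 3 and TGFB1 replicates 1 to 3 it was 10.85, 14.2 and 11.77.

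With TGFB1, 7 of the 13 mitochondrial mRNAs fell and 0 rose. DESeq2 and limma-voom also called 0 as higher. Those that fell were MT-ND6, MT-ND2, MT-ND1, MT-ND5, MT-ND4, MT-ATP6 and MT-CYB, with log2 fold changes (TGFB1 over Vehicle) from -0.79 to -0.41. Of the 7 mRNAs for complex I, 5 fell, as did the single mRNA for complex III and 1 of the 2 for complex V. None of the 3 mRNAs for complex IV (MT-CO1, MT-CO2 and MT-CO3) passed the test. Nor did MT-ND3, MT-ND4L, MT-ATP8, the 2 rRNAs or the 3 tRNAs with enough counts to be tested. The test was edgeR's quasi-likelihood test with Benjamini-Hochberg adjustment over all 16690 genes tested. Over those genes it called 3.31% in either direction and 0.887% as lower, and the median log2 fold change was -0.01. Over the 13 mRNAs, all of which were tested, the median log2 fold change was -0.46, and 11 of the 13 values were below 0. For 8 of the 13, every TGFB1 library was below every Vehicle library, as it was for 7.49% of all genes tested. From the level of 1 transcript in bulk RNA, fewer mitochondria per cell, less of it per mitochondrion and a change of RNA content per cell cannot be told apart. The mRNAs did not all change alike. Summed complex IV counts over those of the other 9 H-strand mRNAs changed 1.67-fold (TGFB1 over Vehicle, from mean log2 ratios). That ratio was chosen after the values were seen, and the cause was not tested.

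**Figure D1:**
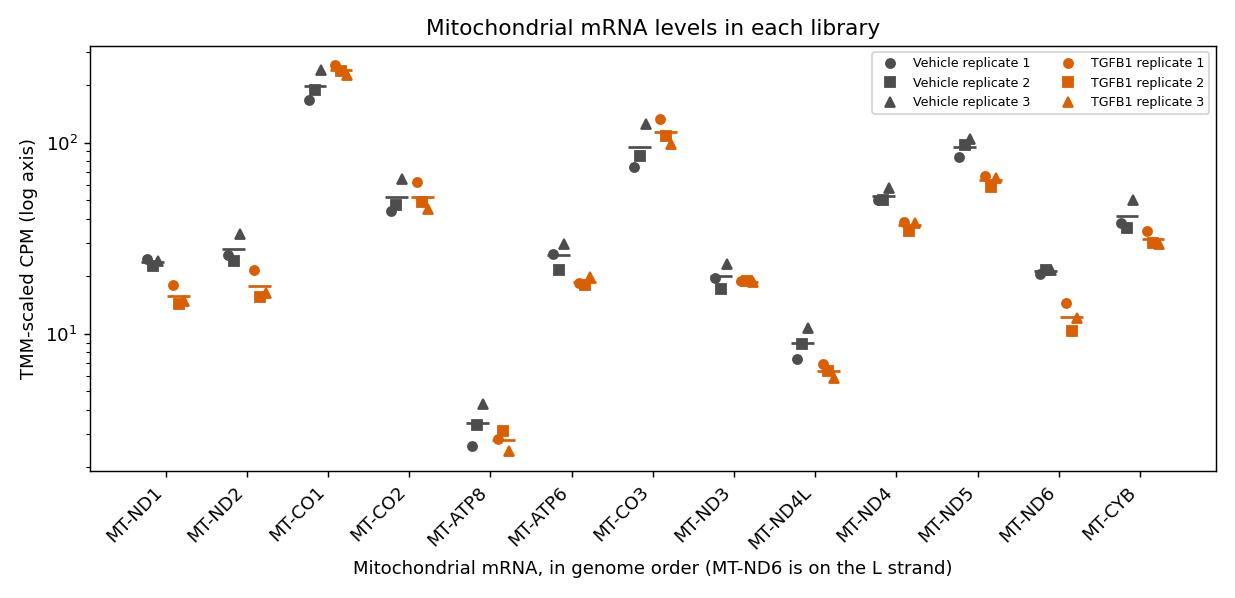
TMM-scaled CPM (log axis) of the 13 mitochondrial mRNAs, in genome order, with 1 point per library and a line at each group's mean (n = 3 libraries each). The TGFB1 points of MT-ND1, MT-ND4, MT-ND5 and MT-ND6 all lie below the Vehicle points, while those of MT-CO1, MT-CO2 and MT-CO3 mix with them.

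Of the 7 mRNAs that fell, 5 encode subunits of complex I, the proton-pumping NADH dehydrogenase. MT-ND6, the L strand's single mRNA (GRCh38 chrM:14149-14673), stood at 20.5, 21.6 and 21.7 CPM in Vehicle replicates 1 to 3 and at 14.4, 10.3 and 12.2 CPM in TGFB1 replicates 1 to 3. The highest TGFB1 library was thus well under the lowest Vehicle library. Its log2 change was -0.79 ± 0.11 (SE, adjusted p = 4.15e-06), the lowest of the 13 mRNAs. MT-ND6 encodes a subunit of the membrane arm. The strand setting used in counting is not given in the sources used here. Without strand, reads of the H-strand precursor across this gene cannot be told apart from MT-ND6 itself.

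MT-ND5, on the H strand just before MT-ND6 on the map (chrM:12337-14148), encodes a large membrane subunit of the proton pump. Its levels were 84.3, 97.8 and 104.4 CPM in the Vehicle libraries and 66.6, 58.4 and 65.5 CPM in the TGFB1 libraries. These ranges did not overlap, and the log2 change was -0.59 ± 0.07 (SE, adjusted p = 4.63e-07). MT-ND4 (chrM:10760-12137), the neighbouring pump subunit, stood at 50.1, 50.3 and 58.0 CPM in Vehicle and 38.6, 34.4 and 38.2 CPM with TGFB1. It too was lower in every TGFB1 library, with a log2 change of -0.51 ± 0.07 (SE, adjusted p = 8.3e-06).

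The 2 complex I genes that open the mRNA part of the H strand fell too. MT-ND1 (chrM:3307-4262), whose protein joins the membrane arm to the rest of the enzyme, stood at 24.5, 22.6 and 24.05 CPM in Vehicle and at 17.9, 14.4 and 14.9 CPM with TGFB1. The 3 Vehicle values lay close together, and the log2 change was -0.59 ± 0.10 (SE, adjusted p = 9.43e-05). MT-ND2 (chrM:4470-5511), another membrane subunit, stood at 25.7, 23.98 and 33.3 CPM against 21.5, 15.6 and 16.4 CPM. Vehicle replicate 3 and TGFB1 replicate 1 were the high libraries of their groups. The log2 change was -0.64 ± 0.13 (SE, adjusted p = 0.00849), and the call was lost without TGFB1 replicate 2 (adjusted p = 0.0526) or TGFB1 replicate 3 (0.0786).

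The remaining complex I mRNAs are the shortest of the 7 and encode small membrane subunits. MT-ND4L, at 7.36, 8.84 and 10.7 CPM in Vehicle and 6.97, 6.38 and 5.90 CPM with TGFB1, had a log2 change of -0.49 ± 0.15 (SE, adjusted p = 0.0615). Its groups did not overlap, and it passed the threshold without Vehicle replicate 1 (adjusted p = 0.0117), with upper-quartile scaling (0.0487) and with no low-count filter (0.0459). MT-ND3 stood at 19.5, 17.2 and 23.1 CPM against 18.8, 18.8 and 18.7 CPM. The TGFB1 values lay inside the Vehicle range, with a log2 change of -0.09 ± 0.10 (SE, adjusted p = 0.81), which turned to 0.03 without Vehicle replicate 3. Summed over the 7, complex I mRNAs stood at 232, 242.4 and 275.2 CPM in Vehicle and at 184.8, 158.4 and 171.7 CPM with TGFB1, 0.687 times the Vehicle mean.

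MT-CYB (chrM:14747-15887), which encodes cytochrome b of complex III, was the weakest of the 7 calls. Its levels were 38.1, 35.8 and 50.4 CPM in Vehicle and 34.4, 29.95 and 29.5 CPM with TGFB1, so the groups were separated by a narrow margin. The log2 change was -0.41 ± 0.11 (SE, adjusted p = 0.0464). The call was lost without Vehicle replicate 3 (-0.24, adjusted p = 0.094), TGFB1 replicate 2 (0.241) or TGFB1 replicate 3 (0.234), and with total-count scaling (0.153), scaling on nuclear genes alone (0.0638), a stricter count filter (0.054) and a replicate block (0.0532).

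The mRNAs of complex IV, cytochrome c oxidase, were not called in either direction. MT-CO1, which encodes the catalytic subunit that holds the heme-copper centre, stood at 167.0, 188.9 and 241.4 CPM in Vehicle and at 254.5, 238.6 and 225.9 CPM with TGFB1. Vehicle replicate 3 lay within the TGFB1 range and the other Vehicle libraries below it. The log2 change was 0.27 ± 0.16 (SE, adjusted p = 0.624). Without Vehicle replicate 3 it was 0.43, past the threshold (adjusted p = 1.66e-07), and with no low-count filter it was 0.28, also past it (0.0178). MT-CO3, a structural subunit, had 74.5, 85.3 and 124.7 CPM against 133.7, 108.5 and 98.9 CPM. Here too Vehicle replicate 3 lay among the TGFB1 libraries, and the log2 change was 0.26 ± 0.25 (SE, adjusted p = 0.803). Leaving out Vehicle replicate 3 gave 0.51, and leaving out replicate 1 gave 0.11 (Vehicle) or 0.12 (TGFB1). MT-CO2, which carries the copper centre that takes electrons from cytochrome c, had 44.1, 47.3 and 64.6 CPM against 62.3, 48.96 and 45.2 CPM. Its groups overlapped fully, with a log2 change of -0.0013 ± 0.21 (SE, adjusted p = 0.999) whose sign turned under several alternatives.

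**Figure D2:**
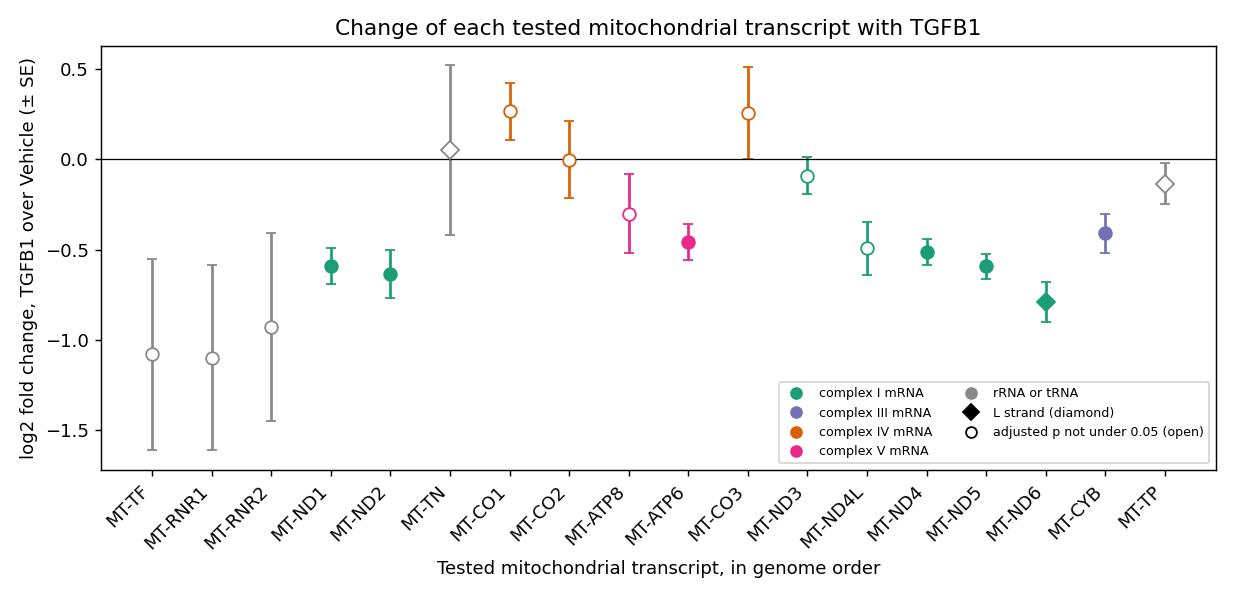
Log2 fold change (TGFB1 over Vehicle) with its SE for the 18 tested mitochondrial transcripts, in genome order; filled symbols have an adjusted p under 0.05 and diamonds lie on the L strand. The 7 filled symbols all lie below 0, between -0.79 and -0.41, and the 3 complex IV mRNAs lie at 0.27, -0.0013 and 0.26.

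The balance among mRNAs also differed between the groups, in ratios that need no scaling between libraries. These ratios were chosen after the values were seen and carry no test. The summed counts of MT-CO1, MT-CO2 and MT-CO3 were 1.03, 1.14 and 1.28 times those of the other 9 H-strand mRNAs in Vehicle, and 1.99, 1.99 and 1.75 times with TGFB1. Every TGFB1 library was thus above every Vehicle library. MT-CO1 took 28.6%, 30.2% and 30.6% of all mitochondrial mRNA counts in Vehicle and 36.8%, 39.4% and 38.1% with TGFB1. MT-ND5 took 14.4%, 15.7% and 13.2% against 9.64%, 9.65% and 11.03%. MT-CO1 counts were 1.98, 1.93 and 2.31 times those of MT-ND5 in Vehicle and 3.82, 4.08 and 3.45 times with TGFB1.

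The genes MT-ATP8, MT-ATP6 and MT-CO3 touch or overlap on the H strand with no tRNA between them. Their log2 changes were -0.30 ± 0.22, -0.46 ± 0.10 and 0.26 ± 0.25 (SE). Differences between these genes were not tested, and the first 2 values lay close given their SEs. MT-ATP8 and MT-ATP6 share 46 bases, MT-ATP6 and MT-CO3 share 1 base, and MT-ND4L and MT-ND4 share 7. The junctions are shown because reads across shared bases belong to both genes, and how such reads were counted is not given in the sources used here. Each is given 5′ to 3′ on the plus strand, with the shared bases in capitals (GENCODE 29 transcripts, GRCh38), at chrM:8515-8584, chrM:9195-9219 and chrM:10748-10778.
MT-ATP8/MT-ATP6: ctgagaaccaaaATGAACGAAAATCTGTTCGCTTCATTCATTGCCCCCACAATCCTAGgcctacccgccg
MT-ATP6/MT-CO3: cgacaacacataAtgacccaccaat
MT-ND4L/MT-ND4: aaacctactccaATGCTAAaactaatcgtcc

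Both proteins of the first pair belong to the membrane part of ATP synthase, MT-ATP6 forming part of its proton channel. MT-ATP6 (chrM:8527-9207) stood at 26.3, 21.6 and 29.3 CPM in Vehicle and at 18.5, 18.1 and 19.8 CPM with TGFB1. Every TGFB1 library was below every Vehicle library, with a log2 change of -0.46 ± 0.10 (SE, adjusted p = 0.00362). MT-ATP8, at 2.58, 3.32 and 4.28 CPM against 2.80, 3.09 and 2.43 CPM, overlapped between groups, with a log2 change of -0.30 ± 0.22 (SE, adjusted p = 0.65) that was -0.09 without Vehicle replicate 3 and -0.45 without Vehicle replicate 1. It rested on 591 counts over the 6 libraries, and 46 of its 207 bases are shared. The count ratio of MT-CO3 to MT-ATP6 was 2.84, 3.95 and 4.25 in Vehicle and 7.25, 6.01 and 4.99 with TGFB1. That ratio was also chosen after the values were seen and carries no test. It was higher in each TGFB1 library than in any Vehicle library.

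The mRNAs also differ in how their coding sequences end. In several the last codon is incomplete in the DNA, and the poly(A) tail supplies the rest of the stop codon. Of the 13 annotated mRNA genes, 6 had a length that left 1 or 2 bases past a whole codon. Their last 30 bases are shown 5′ to 3′ with these leftover bases in capitals (chrM:4233-4262, chrM:5482-5511, chrM:9961-9990, chrM:10375-10404, chrM:12108-12137 and chrM:15858-15887, plus strand).
MT-ND1: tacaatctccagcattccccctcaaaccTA
MT-ND2: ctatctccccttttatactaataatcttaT
MT-CO3: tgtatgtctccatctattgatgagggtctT
MT-ND3: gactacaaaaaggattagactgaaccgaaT
MT-ND4: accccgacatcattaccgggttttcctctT
MT-CYB: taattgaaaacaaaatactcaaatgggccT
Of these, MT-ND1, MT-ND2, MT-ND4 and MT-CYB fell with TGFB1, while MT-CO3 and MT-ND3 did not pass the test. MT-ATP6, MT-ND5 and MT-ND6, which end in the whole codons TAA, TAA and AGG, fell as well, so both kinds of end were found among the mRNAs that fell. MT-CO1 ends in AGA and MT-CO2 in TAG.

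The L-strand mRNA had a lower ratio to the summed H-strand mRNAs with TGFB1. That sum includes the complex IV mRNAs, which were not called. They were 1.03 to 1.28 times the other 9 H-strand mRNAs in Vehicle and 1.75 to 1.99 times with TGFB1. The ratio thus also carries that shift, and a sum without the complex IV mRNAs was not analysed here. MT-ND6 counts were 3.64%, 3.57% and 2.82% of the summed counts of the 12 H-strand mRNAs in Vehicle and 2.13%, 1.74% and 2.09% with TGFB1. All TGFB1 libraries lay below all Vehicle libraries, a difference of -0.75 in log2 ratio. The two-sided exact permutation test gave p = 0.1, the smallest that 3 against 3 libraries allow, and 0.36 after adjustment over 6 ratios. Against MT-ND5 alone, the ratio of MT-ND6 counts was 0.244, 0.22 and 0.208 in Vehicle and 0.217, 0.177 and 0.186 with TGFB1, and these ranges overlapped.

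Most tRNA rows had counts at or near 0, with MT-TP the exception. Of 22 tRNA rows, 12 had 0 counts in every library, which allows up to 3 counts or 0.086 to 0.121 CPM per library. Another 7 had too few counts to be tested, so that 3 were tested and 0 passed, with 0 at an unadjusted p under 0.05. Limma-voom also called 0 of the 3, and DESeq2 gave an adjusted p for MT-TP alone, which it did not call. The limits for rows at 0 cover counting error only. The tRNA genes span 59 to 75 bases, and how reads reaching into a neighbouring gene were counted is not given. Counts near 0 thus do not show that a tRNA was absent. MT-TP, the tRNA for proline at the start of the L-strand precursor (chrM:15956-16023), held 2234 counts over the 6 libraries, more than any other tRNA. Its sequence is shown 5′ to 3′ on the minus strand, with the anticodon in capitals.
MT-TP: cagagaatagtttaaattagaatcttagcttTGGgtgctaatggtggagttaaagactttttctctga
MT-TP stood at 11.3, 13.3 and 12.3 CPM in Vehicle and at 10.4, 11.6 and 11.6 CPM with TGFB1, with a log2 change of -0.13 ± 0.12 (SE, adjusted p = 0.724). Per length its mean was 173.1 CPM per kb, against 142.3 CPM per kb for MT-CO1, the highest mRNA on that scale. These values are not on an even footing. MT-TP spans 68 bases and MT-CO1 1542, and how reads that cover a gene only in part were counted is not given. Reads of MT-CO1 can also match nuclear copies. The count ratio of MT-TP to MT-ND6, further along the same strand, was 0.552, 0.619 and 0.566 in Vehicle and 0.724, 1.13 and 0.955 with TGFB1. This ratio was chosen after the values were seen. As with MT-ND6, reads of the opposite strand cannot be told apart here without a strand setting.

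The other tested tRNAs were near the limit of detection. MT-TN, for asparagine, had 15 to 27 counts per library, with a log2 change of 0.05 ± 0.47 (SE, adjusted p = 0.987). MT-TF, for phenylalanine and first on the H strand, had 12, 15 and 38 counts in Vehicle and 13, 11 and 9 with TGFB1. Its log2 change was -1.08 ± 0.53 (SE, adjusted p = 0.407), and it was -0.57 without Vehicle replicate 3, the high library. The summed tRNA counts were 2.22%, 2.34% and 1.79% of the mRNA counts in Vehicle and 1.69%, 2.14% and 2.12% with TGFB1, a log2 difference of -0.09 (two-sided exact permutation p = 0.5). That sign turned without TGFB1 replicate 1, to 0.02, and with the H-strand tRNAs alone the difference was -0.99 (p = 0.1, same exact permutation test). The H-strand tRNAs held only 19, 15 and 38 counts in Vehicle and 13, 13 and 10 with TGFB1. Nearly all of these were MT-TF, and 10 of the 14 rows had 0 counts throughout.

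The 2 rRNAs varied widely within Vehicle. MT-RNR2, the RNA of the large mitochondrial ribosomal subunit (chrM:1671-3229), stood at 17134, 9713 and 5430 CPM in Vehicle and at 6254, 3931 and 6782 CPM with TGFB1. MT-RNR1, that of the small subunit (chrM:648-1601), stood at 4526, 2672 and 1363 CPM against 1410, 1024 and 1568 CPM. Vehicle replicates 1 and 2 were high in both and Vehicle replicate 3 lay among the TGFB1 libraries. The log2 fold changes, -0.93 ± 0.52 and -1.10 ± 0.51 (SE), did not pass the test (adjusted p = 0.611 and 0.529). With limma-voom MT-RNR1 did (-0.93, adjusted p = 0.0195). Without Vehicle replicate 1 the changes were -0.42 and -0.59. Whether the ribosomal RNA depletion also removed mitochondrial rRNA is not given in the sources used here, and how far depletion differed between libraries was not tested.

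**Figure D3:**
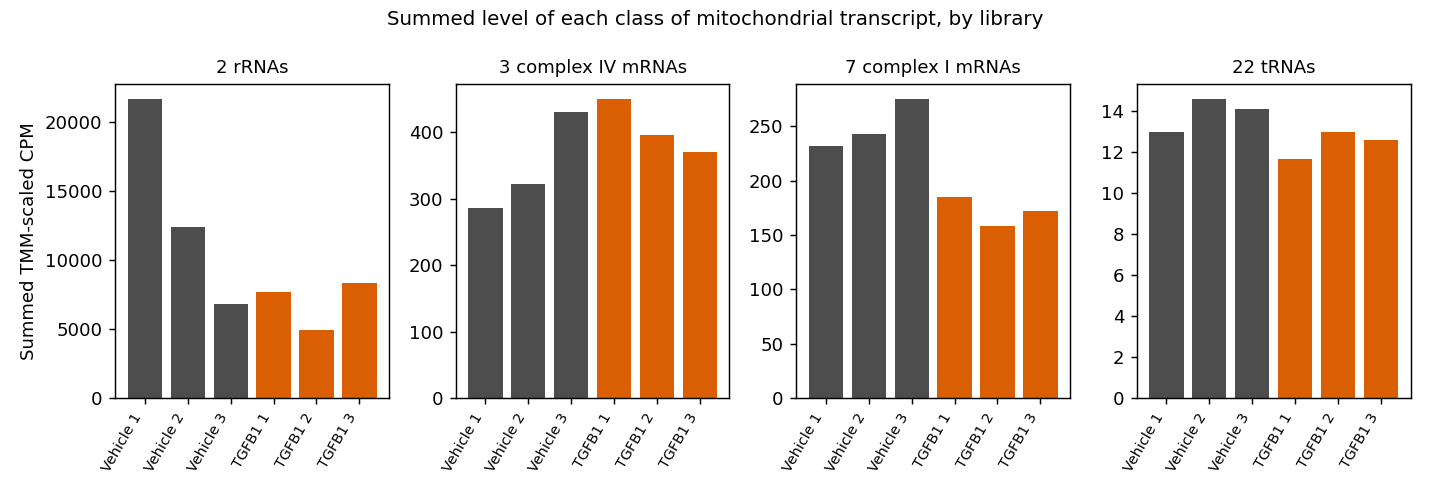
Summed TMM-scaled CPM of 4 classes of mitochondrial transcript in each library (bars from 0, each panel on its own scale). The rRNAs run from 21660 CPM in Vehicle replicate 1 to 4955 CPM in TGFB1 replicate 2, while the complex I mRNAs separate the groups, at 232 CPM and above in Vehicle and 184.8 CPM and below with TGFB1.

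Set against the mRNAs, the rRNA counts were 37.1, 19.8 and 8.60 times the mRNA counts in Vehicle and 11.1, 8.18 and 14.1 times with TGFB1, so the groups overlapped (log2 difference -0.77, two-sided exact permutation p = 0.3). That difference was -0.27 without Vehicle replicate 1 and -1.32 without Vehicle replicate 3. Within Vehicle, replicate 3 had the lowest rRNA and the highest level of each mRNA that fell except MT-ND1. Summed mRNA was 584.5, 624.7 and 790.0 CPM in Vehicle replicates 1 to 3, where summed rRNA was 21660, 12390 and 6793 CPM. With TGFB1 the sums were 691.0, 605.4 and 593.5 CPM of mRNA and 7665, 4955 and 8350 CPM of rRNA. A link between rRNA and mRNA levels was not tested. The lowest Vehicle library differed among the mRNAs that fell. In Vehicle replicate 1, the library with the highest rRNA, MT-ND5 was at its lowest of the 3 and MT-ND1 at its highest, while MT-ND2, MT-ATP6 and MT-CYB were lowest in Vehicle replicate 2. The ratio of MT-RNR2 to MT-RNR1 was 3.79, 3.63 and 3.98 in Vehicle and 4.44, 3.84 and 4.32 with TGFB1 (log2 difference 0.14, two-sided exact permutation p = 0.2). The share of all counts in mitochondrial rows differed by -0.79 in log2 between the groups (p = 0.3, same exact permutation test). This was -0.08 with the rRNA rows left out and -0.06 for the mRNA rows alone, and it ran from -0.41 without Vehicle replicate 1 to -1.17 without Vehicle replicate 3. The ratio of nuclear copies to mitochondrial mRNAs differed by -0.23 (p = 0.2, same exact permutation test), and by -0.15 without TGFB1 replicate 2. For all 6 ratios the adjusted p was 0.36 or above, and with 3 against 3 libraries no p below 0.1 could be reached.

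Per length, the H-strand mRNAs were far from even although they share a precursor. Mean levels were highest for MT-CO1 (142.3 CPM per kb), MT-CO3 (133 CPM per kb) and MT-CO2 (76.1 CPM per kb). The others ran from 56.0 CPM per kb in MT-ND3 to 14.9 in MT-ATP8, with MT-ND1 at 20.6 and MT-ND2 at 21.8. The 3 mRNAs most abundant per length were thus those of complex IV. There was no steady rise or fall from the first to the last gene of the strand, and MT-CYB, the last, stood at 31.9 CPM per kb.

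Many mitochondrial genes have near-identical copies in nuclear DNA, and reads that match both can be dropped or moved by a counter. As 1 measure, 49.5% of the 50-base words of MT-CO1 also occurred in another GENCODE 29 transcript, as did 46.7% for MT-ATP6, 43.6% for MT-ND2, 30.6% for MT-CO3, 28.98% for MT-CO2 and 22.1% for MT-ND1. The share was 4.76% for MT-ND5, 3.54% for MT-ND4, 1.19% for MT-CYB and 0% for MT-ND3 and MT-ND4L. Both genes that fell and genes that did not were found with high and with low shares. Whether reads shared with copies bear on the changes was not tested, and the levels of members with a high share are uncertain. The closest copy of MT-ATP6 is MTATP6P1 on chromosome 1, with 10 differences over 681 bases (98.5% identity). The 60-base stretch with the most differences is shown for both, plus strand, with the differing bases in capitals (chrM:8642-8701 and chr1:633811-633870).
MT-ATP6: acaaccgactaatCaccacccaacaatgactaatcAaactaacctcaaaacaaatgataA
MTATP6P1: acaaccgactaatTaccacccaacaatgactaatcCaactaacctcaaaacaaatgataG
MTATP6P1 averaged 3.54 ± 0.176 CPM in Vehicle against 2.70 ± 0.325 CPM with TGFB1 (SD, n = 3 each). Its log2 fold change was -0.39 (adjusted p = 0.468). MTND2P28, which is 98.4% identical to MT-ND2, had a log2 fold change of -0.27 (adjusted p = 0.772). Of 412 nuclear copies in the table, 236 had 0 counts throughout, 5 were tested and 0 passed, with 0 at an unadjusted p under 0.05. Limma-voom called 0 of the 5, and DESeq2 called 0 and gave no adjusted p for 2 of them. Together they held 12.5, 11.9 and 14.5 CPM in Vehicle and 11.5, 9.04 and 11.03 CPM with TGFB1.

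In 5 lists of nuclear genes that serve the mitochondrial genome 0 members were called, where 3.31% of all genes tested were. The counts of 0 are not set apart from that share by any test. Of 16 genes for its transcription and replication, 0 rose and 0 fell, with a median log2 fold change of -0.03. TFB2M, which opens the promoter for the mitochondrial polymerase, had a mean of 152.5 ± 4.16 CPM in Vehicle against 145.4 ± 6.46 CPM with TGFB1 (SD, n = 3 each). Among 36 genes for processing, modification and decay of mitochondrial RNA 0 passed (median -0.03); they include SLIRP, a binding protein that stabilises mitochondrial mRNAs (log2 fold change -0.03 ± 0.05, SE), and HSD17B10, a subunit of the nuclease that cuts tRNA 5′ ends (0.06 ± 0.06, SE). None passed among 7 regulators of mitochondrial biogenesis (median -0.06), 31 translation factors and aminoacyl-tRNA synthetases (-0.02) or 78 mitochondrial ribosomal proteins (-0.0046). At an unadjusted p under 0.05 these 5 lists had 2, 5, 1, 1 and 10 members, against 12.3% of all genes tested, and with DESeq2 and limma-voom each again had 0 calls. The lists were fixed with earlier results of these data known.

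Nuclear-encoded partners of the mitochondrial subunits were examined for complexes III and IV and ATP synthase, and 0 were called lower, against 0.887% of all genes tested. Those of complex I were not analysed here. Of 9 for complex III, 0 passed (median log2 fold change -0.03), and UQCRH, a hinge subunit, stood at 657.1 ± 29.8 and 636.3 ± 27.8 CPM. Of 11 for complex IV, 0 passed (median 0.0028), and COX6B1 stood at 204.3 ± 7.70 and 204.6 ± 4.69 CPM (SD, n = 3 each). At an unadjusted p under 0.05 the 2 lists had 1 and 0 members, and DESeq2 and limma-voom called 0 in either. Of 18 for ATP synthase, 2 rose (2.43% of all genes tested did) and 0 fell: ATP5MC3, a gene for the rotor ring subunit, from 147.3 ± 9.69 to 170.3 ± 3.11 CPM (log2 fold change 0.21, adjusted p = 0.0181), and ATP5F1D, for the delta subunit, from 22.6 ± 1.21 to 28.5 ± 1.28 CPM (0.33, adjusted p = 0.0181). Both calls were lost without Vehicle replicate 1 or 2 or TGFB1 replicate 3; that of ATP5MC3 was also lost without TGFB1 replicate 1 and that of ATP5F1D without TGFB1 replicate 2 (adjusted p from 0.0949 to 0.136 and from 0.0646 to 0.107).

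**Figure D4:**
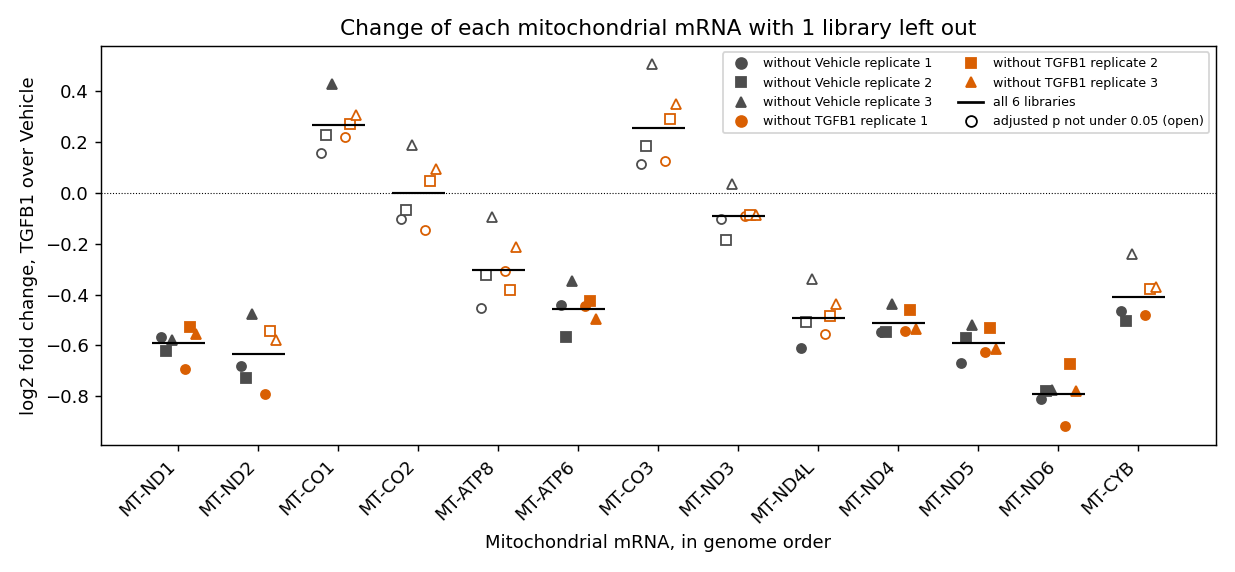
Log2 fold change (TGFB1 over Vehicle) of each mitochondrial mRNA with all 6 libraries (line) and with each library left out in turn (points; open where the adjusted p was not under 0.05). The points of MT-ND1, MT-ND4, MT-ND5, MT-ND6 and MT-ATP6 are filled throughout, and leaving out Vehicle replicate 3 moved MT-CO1 up to 0.43 and MT-CYB to -0.24.

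Across the alternatives in scaling, filter, tool and library, MT-ND1, MT-ND4, MT-ND5, MT-ND6 and MT-ATP6 passed the threshold in all 15 settings run with the 0.05 threshold beside that reported. MT-ND2 passed in 13 and MT-CYB in 8. MT-ND4L passed in 3, MT-CO1 in 2 and MT-RNR1 in 1. MT-CO2, MT-CO3, MT-ND3, MT-ATP8, MT-RNR2 and MT-TP passed in 0 of 15, and their intervals leave room for a change: 1 SE alone was 0.25 for MT-CO3 and 0.21 for MT-CO2. That MT-ND6 and the complex IV mRNAs differ in their response was not tested as a difference between genes.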

How the data were processed

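The deposited values are raw read counts per gene in 6 libraries, which the authors made with cutadapt, TopHat2 2.1 and HTSeq on GRCh38, per the submitters' processing notes. For the annotation release, counting mode and strand setting: not given in the sources used here. Symbols were matched by Ensembl ID. Coordinates and sequences are those of GENCODE 29 (GRCh38), and the counting may have used another release. Sequences of mitochondrial proteins were not used here.

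The low-count filter was filterByExpr (at least 10 counts, 15 in total), which left 16690 genes and 18 of the 37 members. After TMM scaling, genes were tested in R 4.3.3 with edgeR 4.0.16 (robust quasi-likelihood fit, group alone), with Benjamini-Hochberg adjustment over all genes and a threshold of 0.05. The procedure was tested on simulated data. CPM are counts over the TMM-scaled library size. SEs are the size of the log2 change over the square root of F. Ratios were tested with two-sided exact permutation tests over libraries. Limits for rows at 0 cover counting error only.

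Alternatives were other scalings, filters, DESeq2 1.42.0, limma-voom (limma 3.58.1), a replicate block, leaving out each library, and a threshold of 0.01. All members may be named; of the other lists, members past the threshold are named, or some of the 2 most abundant per length. MTATP6P1, MTND2P28, MTCO2P16, SOX10, TYR, PMEL, MLANA, TYRP1, DCT, KRT14, KRT5 and CDH1 were named after their values were seen. The members and lists were chosen with earlier results of these data known.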

Additional observations from a re-analysis of the deposited data

How the results depend on the processing

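Of 16690 genes tested, 553 were called, and with 1 library left out the count ran from 365 (without TGFB1 replicate 1) to 920 (without Vehicle replicate 3). The mitochondrial transcripts called numbered 7, from 5 (without TGFB1 replicate 2 or 3) to 8 with 1 library left out and from 6 to 9 under the other alternatives, where the lower ones were 6 to 8. The log2 difference of the tRNA to mRNA ratio ran from -0.207 to 0.0202 with 1 library left out. The other ratios kept their direction under the alternatives run, though several moved in size.

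Several members and nuclear genes with changes near 0 turned direction, with the cause not tested. MT-CO2 was at 0.0050 with total counts, 0.0028 with mitochondrial rows left out of scaling, 0.0104 with no low-count filter, 0.0043 with the replicate block and 0.0047 with DESeq2. TUFM was at -0.0107 and COX6B1 at -0.0114 with upper-quartile scaling, and MRPL3 at 0.0017 with no low-count filter. With 1 library left out, log2 fold changes ran from -0.1864 to 0.2284 for MT-TN, -0.1474 to 0.1890 for MT-CO2, -0.1847 to 0.0337 for MT-ND3, -0.0138 to 0.0643 for SSBP1, -0.0646 to 0.0014 for SLIRP, -0.0328 to 0.0269 for TUFM, -0.0421 to 0.0157 for MRPL3, -0.0457 to 0.0025 for UQCRQ, -0.0276 to 0.0253 for COX6B1 and -0.1428 to 1.2744 for MTCO2P16. The replicate numbers did not pair the libraries: the correlations of deviations of same-numbered libraries were -0.03, 0.042 and 0.008, and not every library correlated best with its own number. With the replicate block 601 genes and 6 mitochondrial transcripts were called. Of 22 tRNAs, 19 had too few counts to be tested.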
